A study of Mus musculus with 18 samples.

Results

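The hypoxia response genes examined here were 10 mouse genes that cells switch on when oxygen is short, namely Slc2a1, Ldha, Pdk1, Vegfa, Adm, Egln3, Bnip3, Ndrg1, Ankrd37 and Car9. They were chosen by name from the known biology of the response, with earlier results of these data known. They were found through their gene numbers, and 10 of 10 were among the 22657 genes of the table. RNA was measured by sequencing in 18 libraries of cultured ICR mouse testis, with 3 libraries in each of 6 groups. In A0, A10 and A50, the testes came from mice without busulfan, and in B0, BA10 and BA50 they came from mice that had received 1 dose of busulfan, a DNA-alkylating agent toxic to spermatogonia, at 40 µg per g body weight. The mice were 3 weeks old at dosing, the testes were taken 2 weeks later, and all 18 libraries came from tissue kept for 48 h in medium with serum. AOS (alginate oligosaccharide, a sugar chain from brown algae) was added to the medium at 0, 10 or 50 µg per mL, as the number in each group's name gives it. The study's methods describe 6 testes per treatment in each of 3 repeats, and the labels do not say whether 1 library held 1 testis or several. Every group had been cultured, no oxygen level is stated, and no uncultured testis was compared here, so the values describe differences among cultured tissues only.

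A cell short of oxygen responds through the hypoxia-inducible factors HIF-1α and HIF-2α. Prolyl hydroxylases mark these proteins for destruction while oxygen is present, and when it falls the proteins persist, pair with ARNT and bind short DNA motifs beside their target genes. The targets raise glucose uptake and glycolysis, lower the entry of pyruvate into mitochondria, remove mitochondria and call in blood vessels. In the testis the seminiferous tubules hold no vessels of their own, and Sertoli cells convert glucose to lactate that feeds the germ cells.

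Levels are given as FPKM, reads of a gene scaled to its length and to the size of the library, which allows levels of different genes to be set side by side. Tests covered the 15790 genes that reached 1 FPKM in 3 or more libraries, all 10 hypoxia response genes among them. The sum of FPKM was 463970 to 511274 per library, and pairs of libraries of 1 group correlated with r between 0.929 and 0.988 across genes. The 2 lowest of these values both belonged to A10 replicate 3, so the results that rest on it most are also given without it. For 45 of the tested genes, A0 replicate 2, A10 replicate 3, B0 replicate 1 and BA50 replicate 1 were all more than 2 times as high as the other 14 libraries, and the next such set of 4 libraries was shared by 2 genes. None of the calls of the 10 genes changed when a term for these 4 libraries, added after seeing the data, was in the fit. Markers were listed for each cell type, also with earlier results known. Those of spermatids gave a summed level of 1999 to 10126 FPKM, while Amh of immature Sertoli cells and Lhcgr of Leydig cells lay below 1 FPKM in every library. The number of reads per library is unknown. In whole tissue, fewer cells of a type and less RNA per cell cannot be told apart, and the p-values measure the spread between these libraries, which may be technical.

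Among the genes of glucose use, Ldha was the most abundant of the 10 with a mean of 514 FPKM over all libraries, above 99.3% of the genes tested. Slc2a1 (GLUT1, the glucose transporter of most cells) had a mean of 95 FPKM, and Pdk1, the kinase that shuts pyruvate dehydrogenase, had a mean of 10.1 FPKM. The Slc2a1 gene lies on chr4:119108711-119137983 of GRCm38, Ldha on chr7:46841475-46855627 and Pdk1 on chr2:71873224-71903858, all on the plus strand. In replicates 1, 2 and 3, Slc2a1 measured 50.8, 54.6 and 53.9 in A0, 75.4, 75.5 and 273 in A10, 79.5, 43.5 and 93.3 in A50, 154, 186 and 74.0 in B0, 60.3, 48.9 and 138 in BA10, and 64.0, 45.4 and 141 in BA50 FPKM. The 3 A0 libraries lay close together at 53.1 ± 2.02 FPKM (SD, n = 3), every A10 and B0 library stood above them, and A10 replicate 3 reached more than any other library. Ldha, the muscle-type subunit of lactate dehydrogenase, measured 447, 413 and 459 in A0, 521, 601 and 802 in A10, 588, 488 and 574 in A50, 560.0, 524 and 416 in B0, 475, 405 and 487 in BA10, and 477, 417 and 602 in BA50 FPKM. Its A10 and A50 libraries all lay above those of A0 and of BA10, whereas B0 overlapped A0. Ldha has processed pseudogenes of nearly the same sequence, and the counting could have split its reads with them. Pdk1 measured 10.1, 9.20 and 10.0 in A0, 12.5, 11.6 and 9.12 in A10, 11.3, 7.17 and 9.54 in A50, 12.1, 13.1 and 10.1 in B0, 10.1, 6.05 and 13.4 in BA10, and 8.85, 5.02 and 11.9 in BA50 FPKM. No group of Pdk1 stood clear of any other, and its lowest library, BA50 replicate 2, held 5.02 FPKM.

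Vegfa, the growth factor that draws in blood vessels, and Adm, the precursor of the vessel-widening peptide adrenomedullin, are the secreted members. Vegfa lies on chr17:46016993-46032369 on the minus strand and Adm on chr7:110627661-110629820 on the plus strand. Vegfa measured 84.0, 74.8 and 76.0 in A0, 125, 126 and 215 in A10, 110.2, 62.0 and 114 in A50, 156, 192 and 126 in B0, 102, 65.2 and 162 in BA10, and 65.1, 45.9 and 178 in BA50 FPKM. Its A10 and B0 libraries stood above all of A0 and all of A50, and within BA50 replicate 3 held several times the level of the other libraries. Adm measured 53.0, 52.3 and 54.1 in A0, 78.0, 69.7 and 206 in A10, 78.8, 45.7 and 99.2 in A50, 142, 119.7 and 58.3 in B0, 60.9, 58.1 and 106 in BA10, and 73.1, 76.6 and 138 in BA50 FPKM. The A0 libraries of Adm were the tightest of any of the 10 genes in any group, with a coefficient of variation of 1.73%, and A10, B0, BA10 and BA50 each lay wholly above them.

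Egln3 encodes PHD3, a prolyl hydroxylase that is itself induced by HIF and marks HIF for destruction, and Bnip3 encodes a mitochondrial protein that starts the removal of mitochondria. Egln3 lies on chr12:54178981-54203860 and Bnip3 on chr7:138890836-138909519, both on the minus strand. Egln3 measured 21.0, 26.7 and 15.7 in A0, 25.4, 30.7 and 52.2 in A10, 21.6, 12.5 and 21.1 in A50, 53.4, 30.6 and 24.1 in B0, 12.6, 10.9 and 26.4 in BA10, and 20.1, 7.31 and 30.1 in BA50 FPKM. Its A10 and B0 libraries stood above A50 but overlapped A0, which was itself spread from 15.7 to 26.7 FPKM. Bnip3 measured 112, 112 and 136 in A0, 189, 185 and 223 in A10, 169, 113 and 167 in A50, 224, 265 and 176 in B0, 175, 117 and 199 in BA10, and 113, 92.7 and 202 in BA50 FPKM. With a mean of 165 FPKM it was the second most abundant of the 10 genes, and its A10 and B0 libraries stood above all of A0 and all of A50.

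Ndrg1 is a stress-induced gene of cell growth and differentiation, Ankrd37 encodes a small ankyrin-repeat protein and is a HIF-1 target, and Car9 encodes a carbonic anhydrase of the cell surface that helps cells rid themselves of acid. Ndrg1 lies on chr15:66929318-66969640 and Ankrd37 on chr8:45996902-46005707, both on the minus strand, and Car9 on chr4:43506966-43513729 on the plus strand. Ndrg1 measured 52.4, 51.2 and 62.7 in A0, 82.8, 97.9 and 149 in A10, 85.4, 50.9 and 95.4 in A50, 113, 143 and 80.5 in B0, 58.0, 33.4 and 138 in BA10, and 36.6, 21.9 and 147 in BA50 FPKM. Its A10 and B0 libraries stood above A0, and its BA50 libraries spanned 21.9 to 147 FPKM, nearly the whole range of the gene. Ankrd37 measured 4.35, 4.76 and 4.13 in A0, 5.19, 5.59 and 8.23 in A10, 5.67, 3.05 and 4.29 in A50, 8.24, 6.50 and 4.22 in B0, 4.35, 2.75 and 4.35 in BA10, and 2.62, 1.96 and 6.32 in BA50 FPKM. Its A10 libraries stood above A0 and above BA10, at levels lower than those of 8 of the other genes. Car9 measured 2.22, 3.43 and 2.69 in A0, 4.85, 3.54 and 10.7 in A10, 3.42, 1.84 and 5.14 in A50, 6.91, 7.67 and 4.78 in B0, 4.64, 1.73 and 6.56 in BA10, and 1.89, 0.90 and 9.73 in BA50 FPKM. It had the lowest mean, 4.59 FPKM, and the widest range, with its highest library 11.9 times its lowest, and its A10 and B0 libraries stood above A0.

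**Figure D1:**
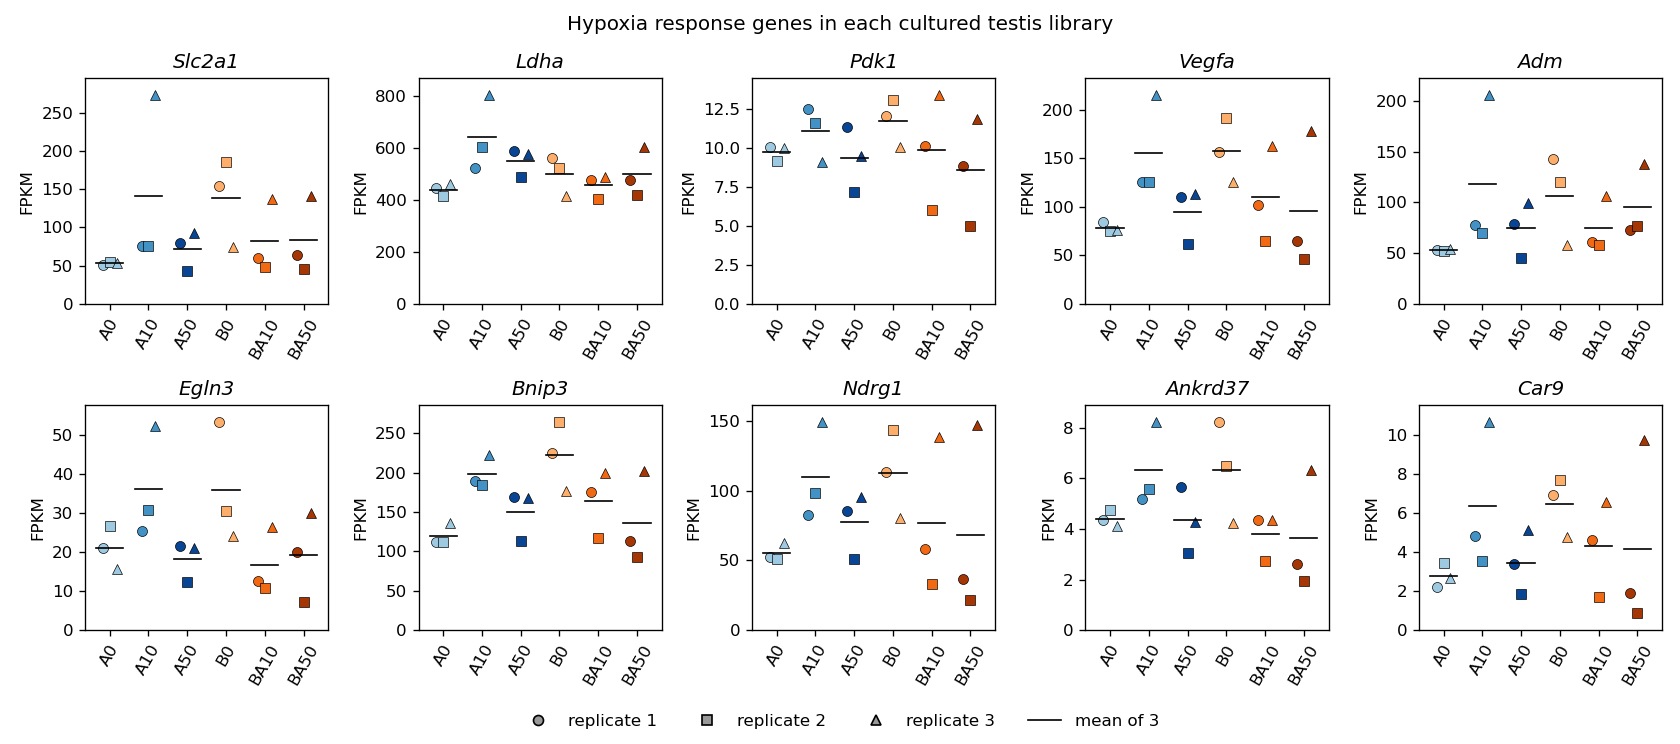
Level of each of the 10 hypoxia response genes (FPKM, linear axis from 0) in the 18 libraries, with the 6 groups along the horizontal axis, 1 symbol per replicate and a bar at the mean of 3. The A0 libraries lie close together for most genes, and A10 replicate 3 and BA50 replicate 3 stand high in their groups.

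The order of the groups was much alike from gene to gene. A10 had the highest mean for 5 genes (Slc2a1, Ldha, Adm, Egln3 and Ankrd37) and B0 for the other 5, and A0 had the lowest mean for 7 of the 10. Without A10 replicate 3, A10 had the highest mean for 2 genes (Ldha and Pdk1) and B0 for 8. Without BA50 replicate 3, BA50 had the lowest mean for 7 genes and A0 for 3. Neighbours in the order of group means overlapped for every gene. The ratio of the B0 to the A0 mean ran from 1.14 for Ldha to 2.60 for Slc2a1, with a median of 1.93 over the 10 genes. The ratio of A10 to A0 ran from 1.14 for Pdk1 to 2.66 for Slc2a1, with a median of 1.85. Without A10 replicate 3 the median was 1.41, the ratio of Slc2a1 was 1.42, that of Adm fell from 2.22 to 1.39, and the highest was 1.63 for Ndrg1.

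The DNA near annotated starts of these genes is shown because HIF can bind ACGTG or GCGTG, the core of the hypoxia response element. RefSeq (GRCm38.p6) windows of 300 bases, 250 before to 50 after an annotated start, were matched for 9 of the 10 genes and gave 12 windows. Ndrg1 was not matched. ACGTG on either strand was found in the windows of 7 of 9 genes (77.8%), against 27.8% of the 11797 tested genes with a window. GCGTG was found in 7 of 9 genes (77.8%) against 52.0% of tested genes, and either ACGTG or GCGTG in 9 of 9 against 63.5%. Counted by window, ACGTG lay in 58.3% of the 12 windows of the hypoxia response genes and in 24.2% of the windows of tested genes, all of the same length. A palindrome CACGTG counts on both strands. Vegfa enters the counts by gene only through a window whose start lay 7206 bases inside the gene. Its other window, with a start just ahead of the gene's first base, held no match. These matches are a description of letters and not of binding. The first set below gives the 150 bases before the start, or the part of them free of annotated exons. Every match on either strand is in capitals. Ldha, Bnip3, Adm and Pdk1 are shown, each with a match in its stretch. The same stretches of Car9, Ankrd37, Egln3 and Vegfa held none, and that of Slc2a1, not shown, held 1 of GCGTG. A start here is the RefSeq one of the window, which for Ldha lay 4329 bases inside the gene as GENCODE places it. Ldha is shown at chr7:46845654-46845803, Adm at chr7:110627507-110627656 and Pdk1 at chr2:71873074-71873223, all on the plus strand, and Bnip3 at chr7:138909520-138909656 on the minus strand.
Ldha: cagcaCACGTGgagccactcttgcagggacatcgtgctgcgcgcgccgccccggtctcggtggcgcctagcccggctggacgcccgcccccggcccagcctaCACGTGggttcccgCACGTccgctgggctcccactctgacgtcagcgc
Bnip3: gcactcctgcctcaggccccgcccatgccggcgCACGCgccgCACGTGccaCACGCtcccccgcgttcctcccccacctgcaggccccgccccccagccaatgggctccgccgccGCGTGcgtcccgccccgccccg
Adm: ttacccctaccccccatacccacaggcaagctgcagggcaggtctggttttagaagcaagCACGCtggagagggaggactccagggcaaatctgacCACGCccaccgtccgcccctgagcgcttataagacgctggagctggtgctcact
Pdk1: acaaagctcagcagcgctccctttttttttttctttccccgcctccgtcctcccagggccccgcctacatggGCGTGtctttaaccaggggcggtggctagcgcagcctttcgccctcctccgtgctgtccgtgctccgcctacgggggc

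The stretch of Ldha held 5 matches of ACGTG over both strands in 3 places, and that of Bnip3 held 2 of ACGTG in 1 palindrome and 3 of GCGTG. The stretches of Adm and Pdk1 held 2 and 1 of GCGTG and none of ACGTG. The second set shows 1 match of ACGTG, in capitals, with the 12 bases on each side. It lay 36 bases before the RefSeq start of Slc2a1 (chr4:119108697-119108725, plus strand), 18 before that of Car9 (chr4:43506996-43507024, plus strand), 6 before that of Ankrd37 (chr8:45999840-45999868, minus strand), 229 before that of Egln3 (chr12:54204087-54204115, minus strand) and 211 before that of a Vegfa window (chr17:46025358-46025386, minus strand). Against the first base of the gene in GENCODE, these starts lay inside the gene by 34 bases for Slc2a1, 60 for Car9, 5857 for Ankrd37 and 7206 for Vegfa, and the start of Egln3 lay 14 bases ahead of it.
Slc2a1: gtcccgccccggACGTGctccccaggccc
Car9: ctatttccgatgCACGTacagcccgtcca
Ankrd37: cagtgtttgggtACGTGaggccgcagcgg
Egln3: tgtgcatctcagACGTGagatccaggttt
Vegfa: ggagtgcgtgccCACGTcagagagcaaca

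The sites of Car9, Ankrd37 and Vegfa lay in an annotated exon, that of Slc2a1 ran across the first base of one, and that of Egln3 lay in none. Ankrd37 held a second ACGTG, not shown, 241 bases before its RefSeq start and outside annotated exons. Ldha, with 5 matches of ACGTG in the stretch shown, had the narrowest range of levels over the libraries, and Car9, with 1, the widest.

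The 10 genes moved together from library to library, also among replicates of 1 group. In A50, replicate 2 was the lowest library for 10 of 10 genes, as replicate 3 was in B0 and replicate 2 in BA10. In BA50, replicate 3 was the highest library for 10 of 10 genes and replicate 2 the lowest for 9, with Adm the exception. In A10, replicate 3 was the highest for 9 genes, and the exception was Pdk1, for which it was the lowest. In BA10, replicate 3 was the highest for 9 genes, while Ankrd37 measured 4.35 FPKM in both replicates 1 and 3. Over all genes tested, these same libraries were lowest or highest of their group for 27.6% (A50 replicate 2), 36.1% (B0 replicate 3), 44.3% (BA10 replicate 2), 39.7% (BA50 replicate 2), 21.2% (BA50 replicate 3), 37.5% (A10 replicate 3) and 30.3% (BA10 replicate 3). A gene that was highest in A10 replicate 3 and BA50 replicate 3 and lowest in A50 replicate 2, B0 replicate 3 and BA10 replicate 2 was found 9 times among the 10 and 325 times among the 15790 tested genes (2.06%), a pattern picked out after the values were seen. A0 showed no such order, with the 3 libraries highest for 2, 4 and 4 of the genes.

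Across the 18 libraries the 45 pairs of these genes had a median Pearson r of 0.78 on log2(FPKM + 1), from 0.37 to 0.96, and a median Spearman rho of 0.77. The mean r was 0.78 for these pairs and 0.02 for all pairs of tested genes. On deviations from each group's mean, where differences between groups play no part, the median r was 0.82. With A10 replicate 3 and BA50 replicate 2 left out, the 2 libraries farthest from the middle of the genes' average, the median r was 0.77. Vegfa followed the average of the other 9 genes most closely (r = 0.97), then Ndrg1 (0.95) and Car9 (0.94), and Pdk1 (0.72) and Ldha (0.74) followed it least. These values describe libraries that share groups and were not tested.

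**Figure D2:**
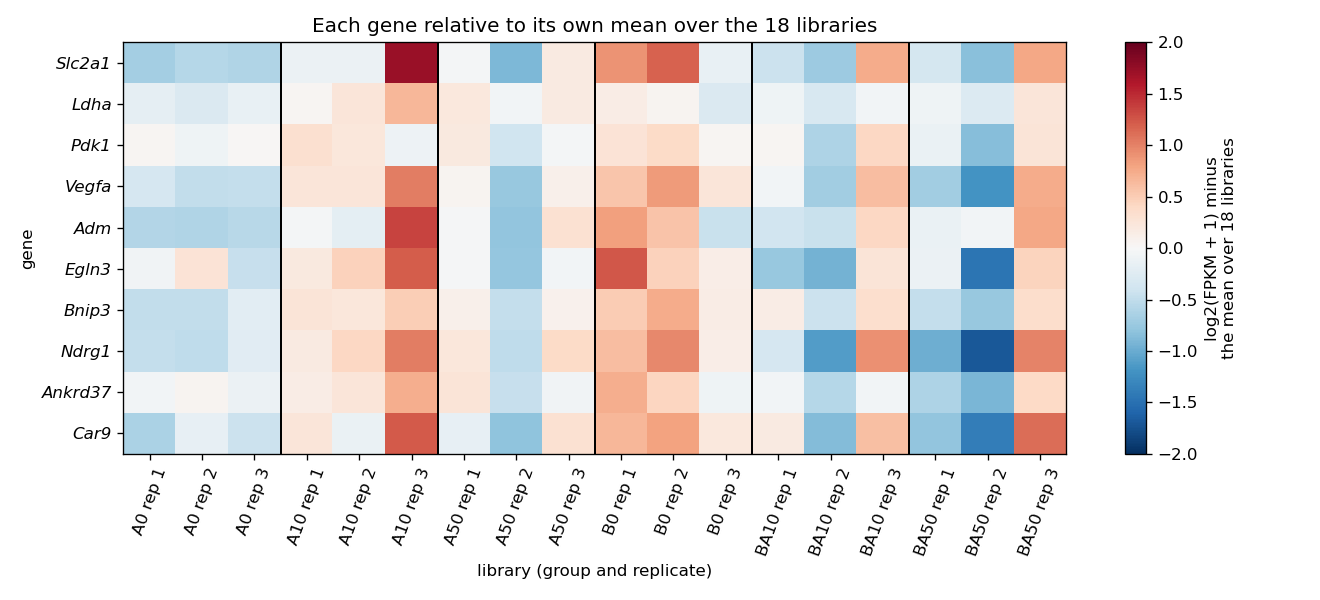
Each gene's log2(FPKM + 1) minus its own mean over the 18 libraries (colour scale from -2 to 2, red above and blue below the mean), with genes as rows and libraries as columns, and lines between the 6 groups. Columns tend to be of 1 colour, red in A10 replicate 3, B0 replicates 1 and 2 and BA50 replicate 3, and blue in A0, A50 replicate 2, BA10 replicate 2 and BA50 replicate 2.

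The spread within groups was wide for most of the 10 genes. The residual SD on the log2 scale was 0.77 for Ndrg1, 0.73 for Slc2a1 and Car9, 0.62 for Egln3, 0.58 for Adm and 0.57 for Vegfa, each above at least 95% of the genes tested, whose median was 0.21. It was 0.40 for Ankrd37, 0.36 for Pdk1, 0.35 for Bnip3 and 0.21 for Ldha. The spread was smallest in A0, where the highest library was a median of 1.14 times the lowest over the 10 genes. This ratio was 1.76 in A10, 1.84 in A50, 1.69 in B0, 2.32 in BA10 and 3.17 in BA50, and reached 10.8 for Car9 in BA50.

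The comparison of B0 with A0 set testes of busulfan-treated mice beside those of mice without busulfan, both cultured without AOS. All 10 genes had a higher mean in B0, and the fitted change had a median of 0.88 on the log2(FPKM + 1) scale, which understates the change of low genes, against -0.04 over all genes tested. At an adjusted p under 0.05, 1 of the 10 genes was called, Bnip3, which rose by 0.87 (SE 0.27, limma adjusted p = 0.0419), from 119.8 ± 14 to 222 ± 44.4 FPKM (SD, n = 3). For comparison, 13.8% of all tested genes were called and 1.47% were called higher. The call did not hold when any A0 library, B0 replicate 1 or B0 replicate 2 was left out (limma adjusted p from 0.067 to 0.149). Slc2a1 had a change of 1.26 (SE 0.55, limma adjusted p = 0.16) and Vegfa of 0.99 (SE 0.43, limma adjusted p = 0.16), and with Bnip3 they made up the 3 genes with an unadjusted p under 0.05, against 5.57% of all genes in that direction. The 3 B0 libraries lay above all 3 A0 libraries for 6 of the 10 genes (Slc2a1, Vegfa, Adm, Bnip3, Ndrg1 and Car9), as they did for 10.5% of all tested genes. With 3 libraries against 3, an exact permutation test has 20 divisions and can go no lower than p = 0.1.

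Markers of other cells moved with the same comparison. The summed level of 5 fat cell markers was 61.9 to 84.1 FPKM in A0 and 194 to 795 in B0, with 5 of 5 called higher, and that of 5 markers of simple epithelium was 25.4 to 46.6 in A0 and 79.4 to 203 in B0, with 4 of 5 called higher. Markers of spermatocytes fell, 5 of 5, from sums of 268 to 345 in A0 to 82.9 to 137 in B0. Endothelial markers summed to 53.9 to 78.2 FPKM in A0 and 87.4 to 109.95 in B0, and none of 5 was called by limma, with 3 of 5 at an unadjusted p under 0.05. The part of these cells in the levels of the hypoxia response genes was not tested. In B0 replicates 1, 2 and 3, the fat sums were 795, 194 and 268 and the epithelial sums 79.4, 203 and 85.2. Replicate 3, the lowest for all 10 genes, had the lowest sum of neither list. It had the lowest endothelial sum (87.4 FPKM, against 109.95 and 92.4 in replicates 1 and 2). Its Sertoli sum was the highest (501 FPKM, against 326 and 401), and the part of Sertoli cells was not tested.

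With AOS in the medium, the busulfan comparison gave lower means at 10 µg per mL and no common direction at 50. In BA10 against A10 all 10 genes had a lower mean FPKM, and the median change was -0.53 on the log2(FPKM + 1) scale. Without A10 replicate 3, 7 of 10 genes had a lower mean FPKM and the median change was -0.29, and without BA10 replicate 2 the median was -0.30. In BA50 against A50, 5 genes had a higher mean FPKM and 5 a lower one, whereas the log2 change was negative for 8 of 10, with a median of -0.16. That median ran from -0.51 without BA50 replicate 3 to 0.18 without BA50 replicate 2, was -0.36 without A50 replicate 2, and was -0.07 without A50 replicate 1 or A50 replicate 3. None of the 10 was called in either comparison by limma, against 18.9% and 19.9% of all tested genes. In BA10 against A10, Ldha had a change of -0.47 (SE 0.17, limma adjusted p = 0.0676) and Egln3 of -1.11 (SE 0.46, limma adjusted p = 0.11), the 2 genes with an unadjusted p under 0.05 (20.7% of all tested genes in that direction). Without A10 replicate 3 these changes were -0.30 and -0.82. The BA10 libraries lay below all A10 libraries for 2 genes, Ldha and Ankrd37, against 20.2% of all tested genes. In BA50 against A50, no gene had an unadjusted p under 0.05, and no gene's groups stood apart, against 41.7% of all tested genes.

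Averaged over the 3 AOS levels, the change after busulfan was small for each gene, and none of the 10 was called by limma, against 38.1% of all tested genes. None had an unadjusted p under 0.05. Among the genes of glucose use, the change was 0.25 for Slc2a1 (SE 0.32, limma adjusted p = 0.56). For Ldha it was -0.15 (SE 0.10, limma adjusted p = 0.24). For Pdk1 it was -0.04 (SE 0.16, limma adjusted p = 0.86). The secreted factors were both on the higher side, with 0.09 for Vegfa (SE 0.25, limma adjusted p = 0.80) and 0.25 for Adm (SE 0.25, limma adjusted p = 0.45). Egln3 had -0.17 (SE 0.27, limma adjusted p = 0.64) and Bnip3 0.12 (SE 0.15, limma adjusted p = 0.56). Of the remaining genes, Ndrg1 had -0.11 (SE 0.33, limma adjusted p = 0.82), Ankrd37 -0.16 (SE 0.18, limma adjusted p = 0.48) and Car9 0.12 (SE 0.32, limma adjusted p = 0.78). The 95% interval of the average change was -0.36 to 0.06 for Ldha, the narrowest, and -0.82 to 0.60 for Ndrg1, the widest.

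AOS at 10 µg per mL in testes without busulfan (A10 against A0) went with higher means for all 10 genes, with a median change of 0.79 against -0.06 over all genes tested, and none was called by limma, as 0% of all tested genes were. The smallest limma adjusted p among the 10 was 0.32. Ldha (0.52, SE 0.17), Vegfa (0.93, SE 0.43), Adm (0.95, SE 0.43) and Bnip3 (0.73, SE 0.27) had an unadjusted p under 0.05, 4 of 10 against 4.51% of all genes in that direction. The A10 libraries lay above all A0 libraries for 8 of 10 genes, all but Pdk1 and Egln3, against 7.81% of all tested genes. Without A10 replicate 3, whose Sertoli markers summed to 133 FPKM against 300 and 381 in the other A10 libraries, the changes were 0.35 for Ldha, 0.68 for Vegfa, 0.47 for Adm and 0.64 for Bnip3, and the median over the 10 genes fell from 0.79 to 0.46. Beside these values, spermatocyte markers summed to 268 to 345 FPKM in A0 and 378 to 434 in A10, and macrophage markers to 176 to 221 in A0 and 94.8 to 179 in A10. None of the 5 markers of either list was called by limma, with 2 of 5 higher and 2 of 5 lower at an unadjusted p under 0.05, and their part was not tested. At 50 µg per mL (A50 against A0) 7 of 10 genes had a higher mean, the median change was 0.27 (0.11 without A50 replicate 3 and 0.48 without A50 replicate 2), none was called by limma (0% of all tested genes), none had an unadjusted p under 0.05, and 1 gene, Ldha, had groups that did not overlap, against 17.6% of all tested genes.

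In testes of busulfan-treated mice the means went the other way. In BA10 against B0 all 10 genes had a lower mean, with a median change of -0.59, and in BA50 against B0 all 10 were again lower, with a median of -0.77, whereas the median of all genes was -0.03 and -0.04. The median over the 10 genes was -0.28 in BA10 against B0 without BA10 replicate 2, and in BA50 against B0 it was -0.44 without BA50 replicate 2 and -1.18 without BA50 replicate 3. Ldha was nearly level in BA50 against B0, with a ratio of means of 0.998. There the log2 change was negative for 8 of 10 genes without B0 replicate 1, B0 replicate 2, BA50 replicate 1 or BA50 replicate 2. None of the 10 was called by limma in either comparison, against 0.0253% and 0.095% of all tested genes. For AOS at 10 µg per mL, Egln3 had a change of -1.09 (SE 0.46, limma adjusted p = 0.75), the 1 gene with an unadjusted p under 0.05 (3.17% of all tested genes in that direction). At 50 µg per mL, Vegfa had -0.93 (SE 0.43, limma adjusted p = 0.20), Egln3 -0.99 (SE 0.46, limma adjusted p = 0.20), Bnip3 -0.76 (SE 0.27, limma adjusted p = 0.13) and Ankrd37 -0.74 (SE 0.30, limma adjusted p = 0.17), 4 of 10 with an unadjusted p under 0.05 against 11.6% of all tested genes. No gene's groups stood apart in either comparison, against 11.4% and 24.6% of all tested genes. For every gene, replicate 3 of BA10 and of BA50 lay above the lowest B0 library, which was B0 replicate 3. Other libraries also did so for some genes. For Adm, BA10 replicate 1 held 60.9 FPKM and BA50 replicates 1 and 2 held 73.1 and 76.6, against 58.3 in B0 replicate 3. Both comparisons share the B0 libraries, and A10 and A50 share those of A0. Beside these values, fat markers summed to 67.5 to 121 FPKM in BA10 and 100.3 to 137 in BA50, with 0 and 3 of 5 called lower than in B0, and epithelial markers summed to 17 to 28.1 and 20.2 to 28.9 FPKM, with 3 of 5 called lower in each. Endothelial markers summed to 87.4 to 109.95 FPKM in B0, 47.6 to 79.3 in BA10 and 32.3 to 80.4 in BA50, and none was called by limma, with 3 of 5 lower at an unadjusted p under 0.05 in each comparison. Spermatid markers summed to 1999 to 3043 FPKM in B0, 3467 to 5932 in BA10 and 4549 to 10126 in BA50, and none was called by limma, with 3 and 4 of 5 higher at an unadjusted p under 0.05. The part of these cells was not tested.

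The difference between the AOS changes with and without busulfan was tested as an interaction. Since the 10 genes moved together from library to library, counts of them here and above are not counts of independent results. At 10 µg per mL it was negative for all 10 genes, with a median of -1.43, and 7 of 10 genes had an unadjusted p under 0.05 against 2.17% of all tested genes in that direction, but none was called by limma (0% of all tested genes). The 7 genes were Bnip3 (-1.18, SE 0.38), Egln3 (-1.80, SE 0.65), Ldha (-0.65, SE 0.24), Vegfa (-1.53, SE 0.61), Slc2a1 (-1.90, SE 0.77), Ankrd37 (-1.0, SE 0.43) and Adm (-1.42, SE 0.61), each at a limma adjusted p of 0.91. Without A10 replicate 3 these values ran from -0.48 for Ldha to -1.51 for Egln3, still negative for the 7. At 50 µg per mL the difference was again negative for all 10 genes, with a median of -0.93 (-0.50 without BA50 replicate 2). Bnip3 (-1.06, SE 0.38, limma adjusted p = 0.67) was the 1 gene with an unadjusted p under 0.05, against 3.36% of all tested genes in that direction, and none was called by limma (0% of all tested genes).

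**Figure D3:**
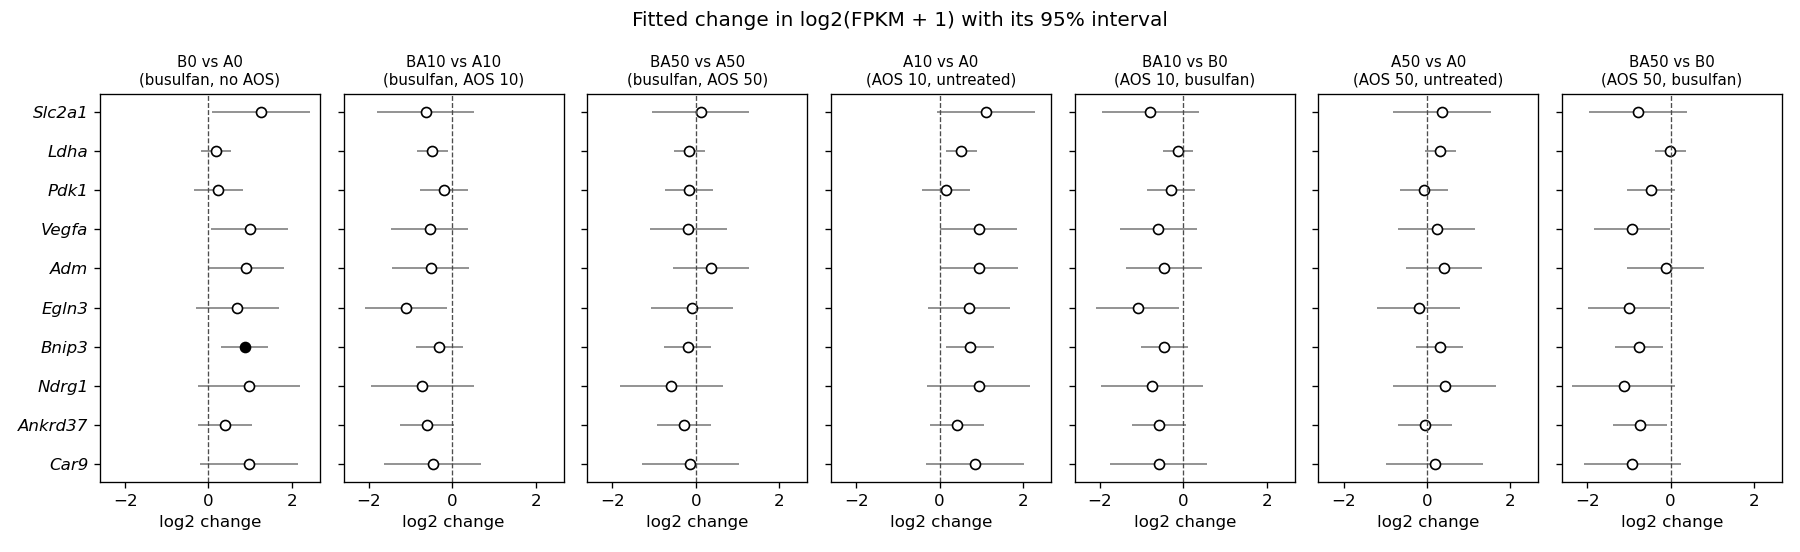
Fitted change of each gene in 7 comparisons (horizontal axis, log2(FPKM + 1) scale), with the 95% interval as a bar, open circles for genes not called and a filled circle for the gene called at an adjusted p under 0.05. Circles lie right of 0 in B0 against A0 and A10 against A0 and left of 0 in BA10 and BA50 against B0, with intervals that mostly span 0, and Bnip3 in B0 against A0 is the 1 filled circle.

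Other genes of the pathway were taken from lists with 56 tested genes outside the 10, also chosen with earlier results known. In B0 against A0, 4 rose and 3 fell, which is 12.5% of the 56 against 13.8% of all tested genes, and 48 of 56 had a higher mean, with a median change of 0.39. Calcrl, the receptor subunit that adrenomedullin uses, rose by 0.84, and the glycolytic enzymes Aldoa, Pkm and Pgam1 rose by 0.48, 0.47 and 0.47. Slc2a3 (GLUT3, a glucose transporter also found in sperm) changed by -2.14, Kdm3a, a histone demethylase needed in spermatids, by -0.57, and Pfkfb4, a glycolytic regulator first described in testis, by -0.34. The same 3 genes were lower in BA10 against A10 and in BA50 against A50, beside lower spermatocyte markers in all 3 comparisons, whose part was not tested. Higher in BA10 against A10 were Hif1a, Epas1 and Cited2, and in BA50 against A50 Hif1a, Hk2, Pfkfb3, Pkm and Cited2. The calls made up 10.7% and 14.3% of the 56 in these comparisons, against 18.9% and 19.9% of all tested genes. The counts rested on single libraries, since the 7 calls in B0 against A0 became 2 without A0 replicate 1, 3 without A0 replicate 3 and 4 without B0 replicate 2. The 6 calls in BA10 against A10 became 3 without A10 replicate 3, and the 8 in BA50 against A50 became 4 without A50 replicate 1 or BA50 replicate 1 and 5 without A50 replicate 2. None of the 56 was called by limma in the 4 AOS comparisons, where 10, 2, 5 and 16 had an unadjusted p under 0.05 in A10 against A0, A50 against A0, BA10 against B0 and BA50 against B0. These are 17.9%, 3.57%, 8.93% and 28.6% of the 56, against 15.2%, 15.6%, 5.05% and 24.3% of all tested genes. Without BA50 replicate 1, 6 were called in BA50 against B0.

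Of the 3 tested genes for HIF subunits, Hif1a and Epas1 were called higher after busulfan on average over the AOS levels, and Arnt was not. In that average 38.1% of the 15790 tested genes were called in either direction, with 2097 called higher. Of the 56 pathway genes 15 were called (26.8%), 12 higher and 3 lower. Hif1a measured 134 ± 18 FPKM in A0, 128 ± 19.8 in A10, 119 ± 8.84 in A50, 173 ± 29.3 in B0, 194 ± 25.2 in BA10 and 179 ± 22.3 in BA50 (SD, n = 3 each). Averaged over the AOS levels it rose after busulfan by 0.51 (SE 0.09, limma adjusted p = 0.00035), and Epas1, which encodes HIF-2α, rose by 0.42 (SE 0.09, limma adjusted p = 0.0019). Arnt, the partner of both, had a change of 0.09 (SE 0.07, limma adjusted p = 0.36). Cited2, which competes with HIF for its coactivators, rose by 0.64 (SE 0.11, limma adjusted p = 0.00031). Over the 18 libraries the r with the average of the 10 genes was -0.21 for Hif1a, -0.18 for Epas1, 0.59 for Arnt and -0.43 for Cited2. HIF-1α is regulated chiefly as a protein, which was not measured here. Of the other HIF hydroxylases, Egln1 (PHD2) had an r of 0.89, Egln2 (PHD1) of -0.12 and Hif1an (FIH) of -0.41, and Vhl, which recognises hydroxylated HIF for destruction, had 0.18.

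With the average of the 10 genes, 19 of the 56 pathway genes (33.9%) had an r above 0.8, against 155 of 15780 tested genes (0.982%), and 9 of the 56 were below 0. Genes of mitochondria under hypoxia were the list with the highest median (0.91), with 5 of 5 above 0.8, among them Bnip3l, the close relative of Bnip3, at 0.92. In glycolysis, Gapdh had 0.93, Slc16a3, the exporter of lactate, 0.91 and Pgk1 0.89, while the germ cell isozymes Ldhc, Pgk2, Gapdhs and Pdha2 lay between -0.34 and 0.07. In collagen processing 3 of 4 were above 0.8, and among regulators Ero1a had 0.94, Ak4 0.91 and Ddit4 0.89. The receptors of VEGF-A and adrenomedullin had none above 0.8, and Flt1 was the highest with 0.76. Edn1, an endothelial peptide, had the lowest value of the 56, -0.65. Eno1 ran from 7.63 to 486 FPKM over the libraries with an r of 0.27. It has a nearly identical copy, and the counting could have split their reads.

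**Figure D4:**
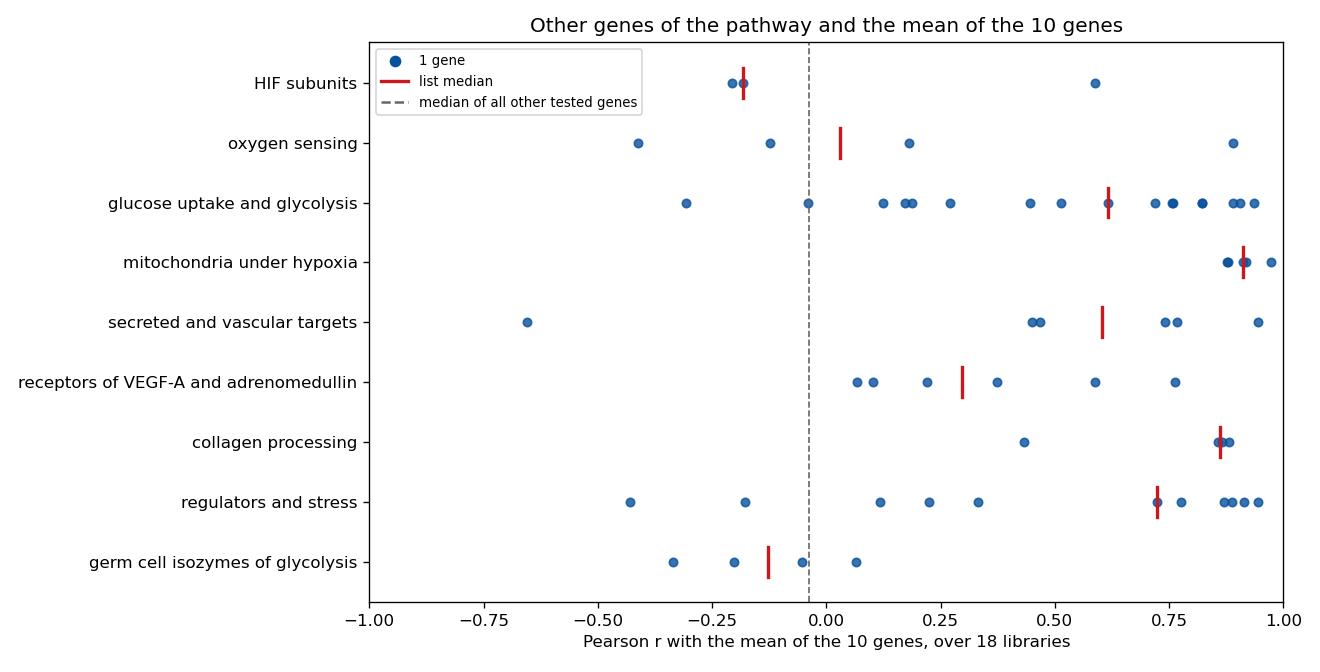
Pearson r over 18 libraries between each other pathway gene and the average of the 10 hypoxia response genes (horizontal axis), with 1 dot per gene, 1 row per list, a red bar at the list median and a dashed line at the median of all other tested genes (-0.04). The mitochondrial list and 3 of the 4 collagen genes lie near the right edge. Hif1a and Epas1 lie below 0, Arnt lies at 0.59, and the germ cell isozymes lie between -0.34 and 0.07.

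Among all tested genes outside the 10, the 8 whose pattern was most like the average of the 10 over the 18 libraries were Eno2 (r = 0.98), Bsg (0.97), Cox4i2 (0.97), Gys1 (0.97), Plekha2 (0.96), Hilpda (0.96), Adm2 (0.96) and Pgf (0.95). Each kept an r of at least 0.93 without A10 replicate 3. Eno2 encodes a form of the glycolytic enzyme enolase, Bsg the partner protein of the lactate exporters, Cox4i2 a subunit of cytochrome c oxidase, Gys1 the glycogen synthase of muscle, Hilpda a lipid droplet protein, and Pgf the placental growth factor. Eno2 ran from 8.02 FPKM in BA50 replicate 2 to 68.7 FPKM in A10 replicate 3, and Bsg from 362 to 1202 FPKM in the same libraries. Taken gene by gene, the nearest gene was Gapdh for Slc2a1 (r = 0.99), Adm2 for Ndrg1 (0.98), Plekha2 for Vegfa (0.97), Vegfa for Car9 (0.96), Bnip3l for Bnip3 (0.96), H2-Q9 for Egln3 (0.95), Hacd1 for Ldha (0.94), Cox4i2 for Ankrd37 (0.94), Ripor2 for Adm (0.94) and Col4a4 for Pdk1 (0.91).

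Summed cell type markers followed the average of the 10 genes less closely. The highest r over the 18 libraries was 0.47 for endothelial markers, and 0.56 on deviations from the group means. Sertoli markers had the lowest, -0.64, and -0.66 on deviations. Spermatid markers had -0.40, spermatogonium markers -0.35, peritubular myoid markers -0.12 and spermatocyte markers -0.05. Erythrocyte markers had 0.40, epithelial markers 0.39, macrophage markers 0.17, fat markers 0.13 and Leydig markers 0.01. BA50 replicate 2, the lowest library for 7 of the 10 genes, had the highest spermatid sum of all libraries (10126 FPKM) and the lowest endothelial sum (32.3 FPKM). The part of these cells in the levels of the 10 genes was not tested.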

How the data were processed

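The deposited values were analyzed for 18 libraries of cultured mouse testis, in 6 groups of 3 taken from the labels. The authors deposited FPKM, 1 value per gene and library with 2 decimals. The submitters' processing notes name HISAT, Bowtie2 and RSEM with GRCm38.p5, while the supplementary methods describe SOAPaligner 2.20 and a HiSeq 2500. Reads per library could not be worked back from the values, so depth is unknown and no counting interval was made. Of 20811 gene numbers, 20656 were matched to a symbol. All columns belonged to samples of the series.

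The change in log2(FPKM + 1) was tested with limma 3.58.1 (R 4.3.3) on the 15790 genes with at least 1 FPKM in 3 or more libraries, with all 18 libraries in 1 fit (12 residual degrees of freedom), moderated variances with a trend, and Benjamini-Hochberg adjustment over all genes tested. A gene was called at an adjusted p under 0.05 with no limit on its fold change. The fit was tested on simulated data for B0 against A0 with 15790 genes. It recovered 52, 145 and 194 of 200 genes changed by 0.5, 1 and 2 on the log2 scale. False calls numbered 3, 5 and 8. These counts do not give the recovery or the false calls for the hypoxia response genes themselves. Their residual SD on the log2 scale ran from 0.21 for Ldha to 0.77 for Ndrg1, against a median of 0.21 over all genes tested. Pairs of them also moved together, with a median r of 0.82 on deviations from each group's mean. The count-based test of the study was not run, since it needs reads. Exact permutation tests were two-sided.

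All 10 genes are given in every library. Fitted values are printed for the average over AOS levels and wherever the unadjusted p was under 0.05. Pathway genes are named where they were called, at most 4 per list, or to describe their likeness, and the 8 genes most like the average of the 10 by Pearson r are named. The genes and lists were chosen with earlier results of these data known. Replicate numbers were checked for pairing by the correlation of same-numbered libraries' deviations from their group means. All 3 correlations were above 0.1 for BA50 against B0 alone (0.56, 0.42 and 0.14), and a fit with the replicate number as a block changed none of its calls for the 10 genes. Sequences came from RefSeq (GRCm38.p6) and gene positions from the GENCODE annotation of GRCm38. Python 3.11.15 was used for the rest. Alternatives covered the pseudocount, filters, scaling, the variance model, the libraries fitted, the block and leaving out each library in turn.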

Additional observations from a re-analysis of the deposited data

How the results depend on the processing

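Counts of the 10 genes called in B0 against A0 (1) were 4 with only those groups in the fit and 0 without a filter on low values, with quantile normalization or under the study's limits (FDR 0.001 and 1 on the log2 scale), and ran from 0 to 1 with libraries left out. Quantile normalization gave 1 call in each of BA10 against A10, BA50 against A50 and the average over AOS levels, where the main count was 0. In BA10 against A10 the count ran from 0 to 1 with libraries left out. The average change of Pdk1 (-0.04) became 0.014 with median-of-ratios scaling and 0.035 with quantile normalization. With libraries left out, this average ran from -0.12 to 0.059 for Pdk1, from -0.10 to 0.22 for Vegfa, from -0.37 to 0.080 for Ndrg1, from -0.31 to 0.0092 for Egln3 and from -0.12 to 0.30 for Car9. The cause was not tested. All 10 counts for the hypoxia response genes were the same with a replicate block, with 1 call in B0 against A0 (Bnip3, limma adjusted p = 0.030) and 0 in the others. Same-numbered libraries correlated above 0.1 in every replicate for BA50 against B0 alone, which does not settle whether any libraries were paired. With 3 libraries a group and a residual SD of up to 0.77, a change of 1.26 for Slc2a1 (B0 against A0) was not called, and depth is unknown.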

Other observations

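Angptl4, a secreted regulator of fat use and a known HIF target, and Eno1, an enzyme of glycolysis, were high in the same libraries. Angptl4 measured 138 FPKM in A0 replicate 2, 100.3 in A10 replicate 3, 140.3 in B0 replicate 1 and 148 in BA50 replicate 1, and 0.00 to 28.9 FPKM in the other 14 libraries. Eno1 measured 109, 470.0, 486 and 456 FPKM in those same 4 libraries and 7.63 to 40.9 FPKM in the other 14. These are the 4 libraries that 45 tested genes set apart, and the pattern was picked out after the values were seen. Angptl4 had an r of 0.47 and Eno1 of 0.27 with the average of the 10 hypoxia response genes, and the 4 libraries ranked 13, 1, 2 and 15 among the 18 by that average.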
